A study of Mus musculus with 4 samples.

Results

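B cells were examined in 4 single-cell RNA libraries of mouse lymph node, the tissue named in the labels. A kept cell counted as a B cell when its UMIs of Cd79a, Cd79b and Ms4a1 summed to at least 3, no UMI of Cd3e, Cd3d or Cd3g was present and Lyz2 had at most 2 UMIs. A UMI is a molecular tag that counts 1 captured transcript, and cells were kept with 500 or more detected genes and with mitochondrial UMIs at or below 10%. The rule found 869 B cells among 35372 kept cells. Of these, 458 were in the library of mice given both treatments (2DG_aPDL1, called the combination), 222 in the aPDL1 library, 126 in the 2DG library and 63 in the control library (ctrl). 2DG is 2-deoxy-D-glucose, a glucose analogue that enters cells and cannot be fully broken down by glycolysis. The label aPDL1 names the checkpoint protein PD-L1 as the target, and the title of the series names ovarian tumours. Strain, dose, duration and the number of mice behind a library are not given in the sources used here. The labels give no age, while the design text of the series mentions both young and aged animals, so the age of the mice behind each group is not known here. Each group was 1 library, so library, mouse and treatment cannot be told apart, no difference has a replicate check and no p-value is given.

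The libraries held between 61859753 and 73885214 UMIs in 8701 to 9948 barcodes. The B cells held 2816067 UMIs in the combination, 1364617 with aPDL1, 914995 with 2DG and 481068 in ctrl, and the median B cell held 4935.5 UMIs in the combination, 4811 with aPDL1, 5444 with 2DG and 5514 in ctrl. Any 2 libraries shared 22 to 30 barcode sequences, and 0 of these belonged to B cells in both. Among the B cells, the highest doublet scores marked 28 in the combination, 19 with aPDL1, 16 with 2DG and 3 in ctrl, and these cells stayed in. All intervals below are exact 95% intervals, from the binomial distribution for shares and the Poisson distribution for levels, and cover counting error only. Levels are CPM, counts scaled to a total of 1000000 over all UMIs of the B cells of a library. Log2 ratios were computed after adding 0.5 to both counts, with an interval from the binomial distribution of the 2 counts.

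B cells carry a membrane immunoglobulin that signals through the Cd79a and Cd79b chains. In lymph nodes most of them are resting follicular cells that express IgM and IgD, present antigen on MHC class II and follow the chemokine receptor Cxcr5 into follicles. After antigen contact and help they may activate, switch the immunoglobulin class, form germinal centres, or become plasma cells, which lose much of the B cell programme and secrete antibody. PD-L1, encoded by Cd274, is displayed by B cells as well as by myeloid cells.

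B cells made up 4.93% of kept cells in the combination library (4.50 to 5.39), 2.45% with aPDL1 (2.15 to 2.79), 1.59% with 2DG (1.32 to 1.89) and 0.693% in ctrl (0.533 to 0.886). The intervals of the 4 libraries do not overlap. The share was 7.11 times as high in the combination as in ctrl, 3.54 times as high with aPDL1 as in ctrl and 2.29 times as high with 2DG as in ctrl. Set against the libraries with 1 agent, the combination share was 2.01 times that with aPDL1 and 3.11 times that with 2DG.

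The sequence of libraries changed when T cells were the only other cells counted. T cells, defined by at least 2 UMIs of the Cd3 genes and none of the B cell rule genes, made up 28.8% of kept cells in the combination, 28.7% with aPDL1, 34.4% with 2DG and 4.83% in ctrl. B cells were 14.6% of B plus T cells in the combination (13.4 to 15.9), 7.88% with aPDL1 (6.91 to 8.93), 4.41% with 2DG (3.69 to 5.23) and 12.5% in ctrl (9.78 to 15.8). By this denominator the 2DG library had 0.351 times the ctrl share, the aPDL1 library 0.628 times, and the combination 1.16 times with an interval that overlaps that of ctrl. The combination stayed above aPDL1 by 1.86 times and above 2DG by 3.31 times, so those comparisons had the same direction with both denominators. With cells that carried any Lyz2, C1q or Tyrobp UMI left out, B cells were 3.1% of kept cells in the combination, 1.79% with aPDL1, 1.17% with 2DG and 0.429% in ctrl, and the order of libraries was the same. Myeloid cells, taken as cells with at least 10 Lyz2 UMIs and none of the B or T rule genes, were 25.2% of kept cells in the combination, 24.6% with aPDL1, 19.8% with 2DG and 25.1% in ctrl. The labels give lymph node as the tissue, and by these rules lymphocytes were a minority of kept cells in each library.

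**Figure D1:**
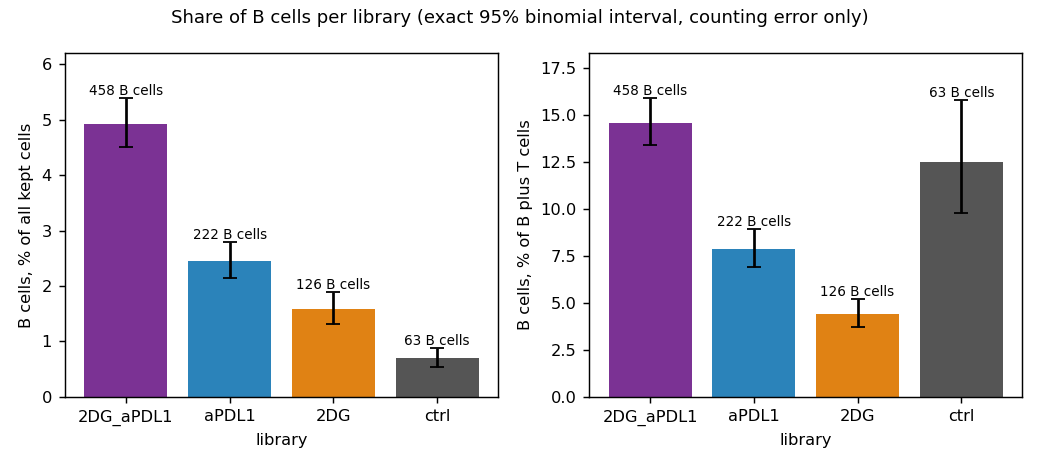
Share of B cells per library, as a percent of all kept cells (left) and as a percent of B plus T cells (right), with exact 95% binomial intervals and the number of B cells above each bar. Of all kept cells the share runs from 4.93% in the combination to 0.693% in ctrl, whereas of B plus T cells the combination, at 14.6%, lies beside ctrl, at 12.5%.

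The rule cells carried the B cell programme outside the 3 genes that chose them. Ebf1, a transcription factor that sets up the lineage, had 4180 CPM in the combination, 3750 with aPDL1, 3320 with 2DG and 3450 in ctrl. In T cells of the same libraries it had 6.93 CPM in the combination, 7.17 with aPDL1, 3.37 with 2DG and 1.28 in ctrl. Pax5, which keeps cells committed to the lineage, had 842 CPM in B cells of the combination, 934 with aPDL1, 754 with 2DG and 665 in ctrl, against at most 1.84 CPM in T cells. These levels therefore lay close together across libraries and far above those of T cells, and the label B cell fits the markers.

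Among the 15 genes that set these cells furthest apart from all other kept cells in every library were Igkc, Iglc2, Cd79a, Ms4a1, Ighd, Iglv1, 2010309G21Rik, Vpreb3, Gm31243, Gm43388, Il5ra, Pou2af1, Blk and Pax5. Because the rule chose the cells by their expression, this order is a description. Of 18 identity genes outside the rule all had enough counts, and their median log2 ratio was 0.05 for 2DG over ctrl, -0.12 for the combination over aPDL1, 0.20 for aPDL1 over ctrl, 0.11 for the combination over 2DG and 0.25 for the combination over ctrl. With each cell weighted equally the value for the combination over 2DG was -0.09. Vpreb3, linked to assembly of the antigen receptor, was the one identity gene past 2-fold in any of these pairs, with a log2 ratio of 1.11 for aPDL1 over ctrl (0.60 to 1.7). Blk, a Src-family kinase of B cells, had 434 CPM in the combination, 303 with aPDL1, 272 with 2DG and 499 in ctrl, so both single-agent libraries were lower than the combination and ctrl. Pou2af1, a coactivator of octamer-binding factors, had 283 CPM in the combination, 330 with aPDL1, 356 with 2DG and 516 in ctrl.

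**Figure D2:**
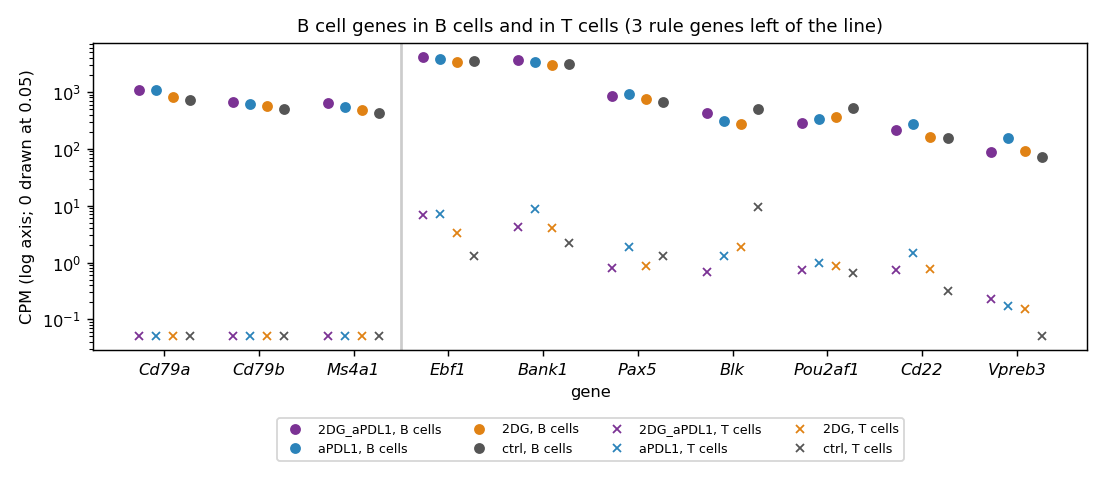
Level in CPM (log axis) of B cell genes in B cells (circles) and in T cells of the same library (crosses), for the 3 rule genes left of the line and 7 genes outside the rule. The rule removes Cd79a, Cd79b and Ms4a1 from T cells, and Ebf1 and Pax5, which it did not use, also lie in B cells far above T cells, for instance Pax5 at 842 CPM against at most 1.84.

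At the edge of the rule the cells were few. A marker sum of exactly 3 was found in 12 B cells of the combination, 7 with aPDL1, 3 with 2DG and 5 in ctrl, and the median sum was 12 in the combination, 12 with aPDL1, 11 with 2DG and 11 in ctrl. A sum of 2, just outside, was found in 7 cells of the combination, 6 with aPDL1, 5 with 2DG and 12 in ctrl. Ebf1 in the cells just inside had 3410 CPM in the combination, 5390 with aPDL1, 8410 with 2DG and 507 in ctrl, while just outside it had 5180 CPM in the combination, 7260 with aPDL1, 389 with 2DG and 3900 in ctrl. Cells just outside thus had the higher Ebf1 level in the combination, with aPDL1 and in ctrl, and the lower one with 2DG. The bar on Cd3 genes alone kept out 38 cells of the combination, 27 with aPDL1, 13 with 2DG and 5 in ctrl, and the bar on Lyz2 alone kept out 32 cells of the combination, 15 with aPDL1, 5 with 2DG and 9 in ctrl.

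Immunoglobulin RNA came mostly from a small share of the cells. Cells with at least 5 UMIs summed over the plasma cell genes Jchain, Xbp1, Mzb1, Sdc1 and Prdm1 were 52 of 458 B cells in the combination, or 11.4% (8.6 to 14.6). They were 22 of 222 with aPDL1, or 9.91% (6.32 to 14.6), 14 of 126 with 2DG, or 11.1% (6.21 to 17.9), and 10 of 63 in ctrl, or 15.9% (7.88 to 27.3). These intervals overlap. The cutoff was applied at the own depth of the cells, and the cells it took were deeper. Their median was 9824.5 UMIs in the combination, 14944.5 with aPDL1, 20327 with 2DG and 17456.5 in ctrl. Other B cells had medians of 4660, 4458.5, 5119.5 and 5253 UMIs in the same order. The cutoff was also met by 2.17% of T cells in the combination, 3.23% with aPDL1, 3.55% with 2DG and 6.15% in ctrl. The plasma-gene cells held 87.4% of all immunoglobulin UMIs of B cells in the combination, 92.6% with aPDL1, 95.3% with 2DG and 95.4% in ctrl. More than 20% immunoglobulin UMIs were found in 12 cells of the combination, 12 with aPDL1, 9 with 2DG and 4 in ctrl, every one of them a plasma-gene cell. The other plasma-gene cells had 20% or less, so values without plasma-gene cells also leave out cells that were not high in immunoglobulin. The part of cell depth in those values was not tested. The median B cell had 0.651% immunoglobulin UMIs in the combination, 0.687% with aPDL1, 0.658% with 2DG and 0.589% in ctrl. Typical B cells thus carried nearly the same immunoglobulin share in each library.

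**Figure D3:**
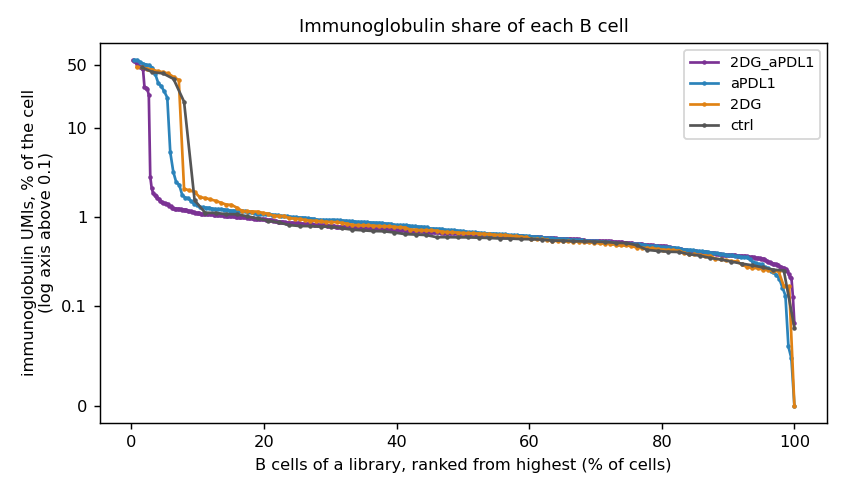
Immunoglobulin UMIs as a percent of each B cell's UMIs (log axis above 0.1), with the B cells of a library ranked from highest to lowest along the horizontal axis (percent of cells). Each line has a short steep start of secreting cells, up to 57.0% in the aPDL1 library, and then runs flat, with medians of 0.687% with aPDL1 at the upper end and 0.589% in ctrl at the lower.

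Sums over B cells therefore rest on a few cells for genes of antibody secretion. Jchain, which joins IgA and IgM into polymers, had 1620 CPM in the combination, 1660 with aPDL1, 5650 with 2DG and 4650 in ctrl. Without plasma-gene cells it had 1.38 CPM in the combination, 1.91 with aPDL1, 1.59 with 2DG and 6.45 in ctrl. Ighm, the IgM heavy chain, had 2170 CPM in the combination, 1960 with aPDL1, 1790 with 2DG and 11200 in ctrl, and 63.6% of its ctrl UMIs came from 1 cell. Without plasma-gene cells Ighm had 2250 CPM in the combination, 2470 with aPDL1, 2510 with 2DG and 2300 in ctrl, which are nearly level. Igha had 4100 CPM in the combination, 5170 with aPDL1, 16300 with 2DG and 16400 in ctrl. Ighg2c had 6980 CPM in the combination, 10800 with aPDL1, 14500 with 2DG and 3950 in ctrl. Of the ctrl immunoglobulin UMIs 94.6% came from 5 cells, so no order of isotypes is read from these sums.

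The secretory pathway followed the same cells. Of 12 plasma cell list genes, 10 passed the level filter in the pairs with ctrl, with a median log2 ratio of -0.30 for 2DG over ctrl, -0.77 for aPDL1 over ctrl and -1.32 for the combination over ctrl. In the pairs without ctrl the median was -0.64 for the combination over aPDL1 (8 genes) and -0.81 for the combination over 2DG (7 genes). Without plasma-gene cells the signs of the list turned, to 0.19 for aPDL1 over ctrl, 0.06 for the combination over 2DG and 0.06 for the combination over ctrl. With the highest doublet scores left out it was -3.08 for 2DG over ctrl, -2.40 for aPDL1 over ctrl, 0.16 for the combination over 2DG and -2.82 for the combination over ctrl. The list of the unfolded protein and integrated stress response had medians of -0.62 for 2DG over ctrl, -0.38 for the combination over aPDL1, -0.66 for aPDL1 over ctrl, -0.23 for the combination over 2DG and -0.87 for the combination over ctrl. Without plasma-gene cells the 3 ratios of this list over ctrl turned positive, at 0.18 in the combination, 0.40 with aPDL1 and 0.26 with 2DG. Hspa5, the main chaperone of the endoplasmic reticulum, had 412 CPM in the combination, 536 with aPDL1, 548 with 2DG and 1420 in ctrl. Without plasma-gene cells it had 349 CPM in the combination, 411 with aPDL1, 373 with 2DG and 310 in ctrl, and ctrl moved from the highest to the lowest of the 4. Xbp1, the transcription factor of secretory cells, had 117 CPM in the combination, 224 with aPDL1, 275 with 2DG and 279 in ctrl. Without those cells it had 19.8 CPM in the combination, 26.7 with aPDL1, 19.1 with 2DG and 12.9 in ctrl.

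Across all genes a difference was counted past 2-fold among genes with at least 50 CPM and 20 UMIs in the higher library of a pair, leaving out immunoglobulin and T cell receptor segment, mitochondrial and haemoglobin genes. For 2DG over ctrl, 106 of 3512 genes were higher (3.02%) and 144 lower (4.1%). For the combination over aPDL1, 43 of 3502 were higher (1.23%) and 37 lower (1.06%). For aPDL1 over ctrl, 102 of 3566 were higher (2.86%) and 122 lower (3.42%). For the combination over 2DG, 55 of 3433 were higher (1.6%) and 71 lower (2.07%). The combination over ctrl had 120 of 3509 higher (3.42%) and 159 lower (4.53%). The share of genes above 0, whatever their size of change, was 45.9% for 2DG over ctrl, 43.5% for the combination over aPDL1, 55.5% for aPDL1 over ctrl, 56.6% for the combination over 2DG and 51.7% for the combination over ctrl. Because the level filter looks at the higher library of a pair, a gene can enter through the library where it is high, so list counts and medians below describe the genes that entered. Each pair that contained ctrl had more genes past 2-fold than either pair that did not, and ctrl also had the fewest B cells. The pairs share libraries and are not independent.

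The balance of higher and lower genes depended on the plasma-gene cells. Higher genes were 42.4% of those past 2-fold for 2DG over ctrl, 53.8% for the combination over aPDL1, 45.5% for aPDL1 over ctrl, 43.7% for the combination over 2DG and 43.0% for the combination over ctrl. Without plasma-gene cells the share was 67.7% for 2DG over ctrl, 36.2% for the combination over aPDL1, 67.8% for aPDL1 over ctrl, 25.2% for the combination over 2DG and 45.5% for the combination over ctrl. With TMM scaling the share for the combination over aPDL1 was 64.7%, with median-of-ratios scaling that for the combination over aPDL1 was 62.5% and that for aPDL1 over ctrl 34.4%, and with CPM over totals without immunoglobulin genes that for the combination over 2DG was 31.0%. The median log2 ratio of all genes was between -0.06 and 0.07 in the 5 pairs. For the combination over 2DG it was -0.04 with each cell weighted equally and -0.03 with totals without immunoglobulin genes, in place of 0.07.

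Few genes stood apart in the combination library from all 3 others. At least 2-fold above the highest of the others were 10 of 3236 genes (0.309%), and 6 of them were also at least as abundant in B cells as in the other kept cells. Among these were Il5ra, Prkar2b, Ccr6, Wnk1 and St3gal6.

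Il5ra encodes the interleukin-5 receptor alpha chain, which in mice is known on B-1 cells and activated B cells (ENSMUSG00000005364, GRCm38 chr6:106710357-106749037, minus strand). Its level was 234 CPM in the combination (216 to 252), 58.6 with aPDL1 (46.5 to 73.0), 55.7 with 2DG (41.5 to 73.3) and 54.0 in ctrl (35.3 to 79.2). The combination lay alone and the other 3 were level within their intervals. The log2 ratio was 1.99 for the combination over aPDL1 (1.66 to 2.35), 2.06 for the combination over 2DG (1.66 to 2.51) and 2.09 for the combination over ctrl (1.55 to 2.74), while single agents over ctrl gave 0.03 for 2DG and 0.10 for aPDL1. T cells had at most 0.363 CPM and myeloid cells at most 0.103 CPM of Il5ra, so this difference lay in cells with B cell markers. Without plasma-gene cells the levels were 244 CPM in the combination, 72.5 with aPDL1, 78.0 with 2DG and 67.8 in ctrl.

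The share of B cells with an Il5ra UMI, looked at after its level was known, was also highest in the combination. After thinning every cell to 2000 UMIs it was 17.7% in the combination (14.3 to 21.6), 7.08% with aPDL1 (4.01 to 11.4), 10.7% with 2DG (5.8 to 17.5) and 8.2% in ctrl (2.72 to 18.1). The combination interval lay above that of aPDL1 and overlapped those of 2DG and ctrl. At their own depth the shares were 28.8% in the combination, 13.5% with aPDL1, 14.3% with 2DG and 22.2% in ctrl. T cells thinned in the same way gave at most 0.149%.

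Within the combination the 132 B cells with Il5ra differed in other genes from the 326 without it. Their median depth was 7291 UMIs against 4438, so detection of Il5ra also selected deeper cells, and levels are compared as CPM. Fcer2a, the low-affinity IgE receptor CD23 of follicular cells, had 42.7 CPM with Il5ra (30.9 to 57.5) and 139 without (122 to 157). Ighd had 159 CPM with Il5ra and 318 without. Plac8, a small cysteine-rich protein of several immune cells, had 1330 CPM with Il5ra and 617 without, and Zbtb32, a zinc finger repressor that limits memory B cell responses in mice, had 47.7 CPM with Il5ra and 16.6 without. Lower Fcer2a and Ighd together with higher Plac8 and Zbtb32 is thus how the Il5ra cells of this library looked in these genes. Of the others compared, Ccr6 (248 against 145 CPM), Cxcr5 (367 against 260) and Ighm (2770 against 1840) were also higher with Il5ra. Fcer2a was lower with Il5ra in each library, but other directions were not shared. With aPDL1, Zbtb32 had 16.9 CPM with Il5ra and 31.2 without, and Ighd 310 and 263. With 2DG, Plac8 had 534 and 635 CPM. Over all B cells, Zbtb32 had 27.7 CPM in the combination, 29.3 with aPDL1, 18.6 with 2DG and 14.6 in ctrl. Bhlhe41, a factor of B-1 cells in mice, had 25.9 CPM in the combination, 16.9 with aPDL1, 32.8 with 2DG and 31.2 in ctrl. Cd5, the surface marker of B-1a cells, was at 7.1 CPM in the combination, 3.66 with aPDL1, 2.19 with 2DG and 6.24 in ctrl. The combination did not stand apart in either of these B-1 genes. Within the combination, Bhlhe41 had 27.8 CPM in cells with Il5ra and 24.9 in cells without, and Cd5 had 6.95 and 7.19 CPM.

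Ccr6, the receptor for the chemokine CCL20, had 182 CPM in the combination (166 to 198), 77.7 with aPDL1 (63.6 to 93.9), 74.3 with 2DG (57.7 to 94.2) and 66.5 in ctrl (45.5 to 93.9). Again the combination stood alone, with log2 ratios of 1.22 over aPDL1, 1.28 over 2DG and 1.43 over ctrl. Ccr6 was detected in 24.6% of thinned B cells of the combination (20.7 to 28.9), 12.7% with aPDL1 (8.56 to 18), 14.8% with 2DG (8.98 to 22.3) and 14.8% in ctrl (6.98 to 26.2), a share also added after the level was known. T cells had Ccr6 at 0.341% of thinned cells in the combination, 0.554% with aPDL1, 0.854% with 2DG and 2.76% in ctrl. At their own depth 40.6% of B cells had it in the combination, 27.5% with aPDL1, 30.2% with 2DG and 25.4% in ctrl.

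Wnk1, a kinase that regulates ion transport and lymphocyte adhesion and migration, had 1350 CPM in the combination, 617 with aPDL1, 565 with 2DG and 524 in ctrl. Its T cell ratios were smaller, with log2 values of 0.14 for the combination over aPDL1, 0.14 over 2DG and 0.12 over ctrl. In B cells the log2 ratio was 1.13 over aPDL1, 1.26 over 2DG and 1.36 over ctrl. Prkar2b, a regulatory subunit of protein kinase A, had 62.1 CPM in the combination, 17.6 with aPDL1, 25.1 with 2DG and 22.9 in ctrl. St3gal6, a sialyltransferase of the Golgi, had 95.5 CPM in the combination, 44.7 with aPDL1, 39.3 with 2DG and 41.6 in ctrl, while its T cell ratios were negative in all 3 pairs, between -0.38 and -0.12.

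Ribosomal protein genes as a group were higher in the combination. All 60 of 60 cytosolic ribosomal protein genes were above 0 in each of the 3 pairs that set the combination against another library, with medians of 0.58 over aPDL1, 0.58 over 2DG and 0.56 over ctrl. Of all genes in these pairs, 43.5% were above 0 over aPDL1, 56.6% over 2DG and 51.7% over ctrl. The medians stayed positive under each scaling and cell choice tried, while 1 of the 60 genes was below 0 over aPDL1 and 1 over 2DG with totals without immunoglobulin genes, and 1 over aPDL1 with each cell weighted equally or with stricter limits on myeloid or mitochondrial RNA. Rpl13, a protein of the large subunit, had 4160 CPM in the combination, 2320 with aPDL1, 2520 with 2DG and 2750 in ctrl. Rps24, of the small subunit, had 4330 CPM in the combination, 2210 with aPDL1, 2500 with 2DG and 3360 in ctrl. The shift was not large per gene, and 2-fold was passed upwards by 1 of the 60 over aPDL1, 2 over 2DG and 0 over ctrl, against 1.23% of all genes over aPDL1, 1.6% over 2DG and 3.42% over ctrl. T cells of the same libraries had list medians of 0.26 for the combination over aPDL1, 0.32 over 2DG and 0.34 over ctrl, and myeloid cells had 0.07 over aPDL1, 0.04 over 2DG and 0.00 over ctrl. Single agents over ctrl gave -0.01 for 2DG and -0.01 for aPDL1 in B cells, values near 0 whose signs depended on the scaling for 2DG and on the cell choice for aPDL1.

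**Figure D4:**
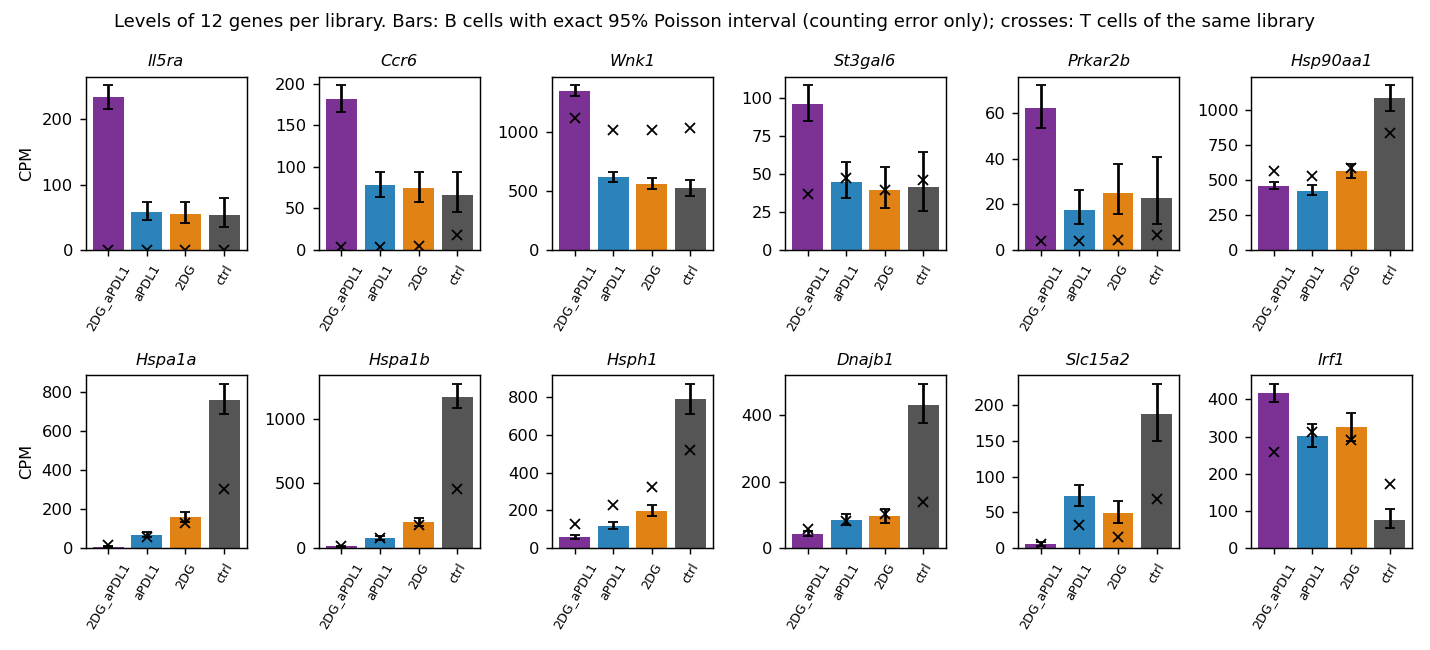
Levels in CPM of 12 genes in B cells per library (bars, exact 95% Poisson intervals) and in T cells of the same library (crosses). Il5ra stands at 234 CPM in the combination against 54.0 to 58.6 elsewhere, and Hspa1b runs the other way, with 14.9 CPM in the combination and 1170 in ctrl.

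Below all 3 others in the combination by 2-fold were 7 of 3236 genes (0.216%). Fkbp11 and Cpeb3 were the pair among them that were at least as abundant in B cells as in other cells. Fkbp11, a prolyl isomerase of secretory cells, had 19.2 CPM in the combination, 54.2 with aPDL1, 66.7 with 2DG and 170 in ctrl, and without plasma-gene cells it had 10.1 in the combination, 10.5 with aPDL1, 11.1 with 2DG and 9.68 in ctrl. Cpeb3, an RNA-binding regulator of translation, had 35.2 CPM in the combination, 77.7 with aPDL1, 89.6 with 2DG and 99.8 in ctrl, and without plasma-gene cells it had 5.06 in the combination, 4.77 with aPDL1, 20.7 with 2DG and 3.23 in ctrl. Neither gene was 2-fold below all 3 others without those cells.

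The ctrl library stood apart in more genes than the combination did. There, 70 of 3291 genes were at least 2-fold above all other libraries (2.13%) and 18 at least 2-fold below (0.547%). The 8 largest among those at least as abundant in B cells as in other cells were Tmem267, Hspb1, Hspa1b, Hspa1a, Dnajb1, Hsph1, Creld2 and Zcwpw1. Heat shock genes made up 5 of these 8, the largest of 25 genes that met both limits. Of the 3512 genes that passed for 2DG over ctrl, 13 were on the heat shock list. The 5 are not separate signals, since Hspa1a and Hspa1b are near-identical copies. Hspb1 rested mostly on 1 cell. Tmem267, a transmembrane protein, had 2.13 CPM in the combination, 2.2 with aPDL1, 1.09 with 2DG and 97.7 in ctrl, but 95.7% of its ctrl UMIs lay in 1 cell. Creld2, a stress-induced protein of the endoplasmic reticulum, had 31.6 CPM in the combination, 50.6 with aPDL1, 47.0 with 2DG and 175 in ctrl, and at most 10.5 CPM in any library without plasma-gene cells. Zcwpw1, a reader of histone methylation known from meiosis, had 17.8 CPM in the combination, 14.7 with aPDL1, 7.65 with 2DG and 54.0 in ctrl, the last from 26 UMIs. Lower in ctrl were Tbck, with 61.1 CPM in the combination, 71.1 with aPDL1, 60.1 with 2DG and 27.0 in ctrl, and Pbdc1, with 61.8 CPM in the combination, 59.4 with aPDL1, 60.1 with 2DG and 27.0 in ctrl, each from 13 UMIs in ctrl.

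Heat shock genes encode chaperones that cells switch on through heat shock factor 1 when proteins misfold. Promoters are shown for 4 of the 5 heat shock genes that stood out in ctrl, those that held a match of the heat shock element, the inverted GAA repeat that the factor binds. The windows of the fifth gene, Dnajb1, held 0 matches, which says only that these letters are not there. Each line gives the 140 bases before the transcription start from RefSeq on GRCm38.p6, read 5′ to 3′ on the strand of the gene, with matches of GAANNTTC or TTCNNGAA in capitals. The windows are chr17:34972157-34972296 (minus) for Hspa1a, chr17:34959239-34959378 (minus) for Hspa1b, chr5:149636337-149636476 (minus) for Hsph1 and chr5:135887779-135887918 (plus) for Hspb1.
Hspa1a: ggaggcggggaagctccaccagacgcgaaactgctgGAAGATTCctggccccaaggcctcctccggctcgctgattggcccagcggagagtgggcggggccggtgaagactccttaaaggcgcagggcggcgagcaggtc
Hspa1b: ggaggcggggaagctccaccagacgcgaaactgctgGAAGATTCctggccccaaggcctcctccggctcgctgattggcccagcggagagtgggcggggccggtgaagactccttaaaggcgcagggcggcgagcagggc
Hsph1: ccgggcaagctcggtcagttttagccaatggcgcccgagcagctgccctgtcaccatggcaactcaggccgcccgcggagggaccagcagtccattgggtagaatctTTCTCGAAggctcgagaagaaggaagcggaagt
Hspb1: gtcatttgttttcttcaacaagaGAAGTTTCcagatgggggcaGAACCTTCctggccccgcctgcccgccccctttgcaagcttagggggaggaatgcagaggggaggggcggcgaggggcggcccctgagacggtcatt
The match begins 104 bases before the start in Hspa1a and Hspa1b, 33 bases before it in Hsph1, and 117 and 97 bases before it in Hspb1. Both motifs read the same on the 2 strands, and overlapping matches would be joined. In 250 upstream bases 12.8% of all 32851 RefSeq windows hold such a match. Of the 12 heat shock list genes with a window, 7 had a match in at least 1 of their windows, up to 3 per gene. The share of windows and the count of genes are unlike measures. The longer heat shock element, with 1 further inverted repeat, was in 0.466% of all windows and in 2 of those 12 genes, Hspe1 and Hspd1. A match is a description of letters and does not show a bound site.

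Hspa1b, an inducible HSP70 chaperone (ENSMUSG00000090877, GRCm38 chr17:34956436-34959238, minus strand), had 14.9 CPM in the combination (10.7 to 20.2), 76.2 with aPDL1 (62.3 to 92.3), 200 with 2DG (172 to 231) and 1170 in ctrl (1080 to 1270). The 4 intervals were apart, with the combination lowest and ctrl highest. It was detected in 2.18% of B cells in the combination, 17.1% with aPDL1, 38.1% with 2DG and 79.4% in ctrl at the own depth of the cells. Thinned to 2000 UMIs, a comparison added after these values were seen, it was found in 0.887% of B cells in the combination (0.242 to 2.26), 8.96% with aPDL1 (5.48 to 13.6), 25.4% with 2DG (18 to 34.1) and 63.9% in ctrl (50.6 to 75.8). Thinned T cells had it in 1.55% in the combination, 11.5% with aPDL1, 20.9% with 2DG and 37.6% in ctrl, so only in ctrl did the B cell interval lie above the T cell share. The log2 ratio was -2.55 for 2DG over ctrl (-2.80 to -2.31), -3.94 for aPDL1 over ctrl (-4.26 to -3.64), -6.28 for the combination over ctrl (-6.78 to -5.84), -2.34 for the combination over aPDL1 (-2.91 to -1.82) and -3.73 for the combination over 2DG (-4.26 to -3.25). T cells ran in the same order, with 17.4 CPM in the combination, 76.5 with aPDL1, 179 with 2DG and 460 in ctrl. Hspa1a, its near-identical neighbour, had 7.46 CPM in the combination, 69.6 with aPDL1, 160 with 2DG and 763 in ctrl, and the split of reads between these copies is uncertain.

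Hsph1, an HSP110 co-chaperone, had 60 CPM in the combination, 119 with aPDL1, 198 with 2DG and 788 in ctrl. Dnajb1, an HSP40 partner of HSP70, had 44.0 CPM in the combination, 85.0 with aPDL1, 96.2 with 2DG and 430 in ctrl. Both genes shared the extremes of Hspa1b, ctrl at the top and the combination at the bottom. Hspb1, a small heat shock protein, had 1.42 CPM in the combination, 2.93 with aPDL1, 17.5 with 2DG and 141 in ctrl, with 88.2% of the ctrl UMIs in 1 cell. Hsp90aa1, the inducible HSP90, had 460 CPM in the combination, 426 with aPDL1, 566 with 2DG and 1090 in ctrl. Its constitutive relative Hsp90ab1 differed less, with 1200 CPM in the combination, 1210 with aPDL1, 1260 with 2DG and 1470 in ctrl. Hspa8, the constitutive HSP70, had 739 CPM in the combination, 780 with aPDL1, 788 with 2DG and 969 in ctrl.

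Over the list, 13 of 15 heat shock genes passed the filter in the pairs with ctrl. All 13 were below 0 for 2DG over ctrl (median -1.01, 7 past 2-fold), for aPDL1 over ctrl (median -1.35, 7 past 2-fold) and for the combination over ctrl (median -1.36, 8 past 2-fold). Of all genes, 4.1% were lower by 2-fold for 2DG over ctrl, 3.42% for aPDL1 over ctrl and 4.53% for the combination over ctrl. Above 0 were 45.9%, 55.5% and 51.7% of all genes in the same pairs. Over the 12 heat shock genes with a mean of at least 50 CPM over the 4 libraries, the same genes in each pair, all 12 were below 0, with medians of -0.98 for 2DG over ctrl, -1.17 for aPDL1 over ctrl and -1.30 for the combination over ctrl. None of the scalings or cell choices tried turned the sign of these medians. In the pairs without ctrl the medians were -0.21 for the combination over aPDL1 and -0.40 for the combination over 2DG, with 9 and 11 of 12 genes below 0. The T cell medians were -0.36 for 2DG over ctrl, -0.44 for aPDL1 over ctrl and -0.43 for the combination over ctrl, and the myeloid medians were -0.02 for 2DG over ctrl, 0.00 for aPDL1 over ctrl and -0.38 for the combination over ctrl. Neutrophil and red cell RNA was also highest in ctrl B cells, as given at the end, and its part in this difference was not tested. The values without plasma-gene cells were similar, for example 17.0 CPM of Hspa1b in the combination and 1220 in ctrl.

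In both pairs that differ by 2DG, 3 of 3201 genes were 2-fold higher (0.0937%), and 0 of these were as abundant in B cells as in other cells. In the same pairs 7 genes were 2-fold lower (0.219%), of which Slc15a2, Fkbp11, Tex14 and Creb3l2 were also at least as abundant in B cells. Slc15a2, a proton-coupled peptide transporter (ENSMUSG00000022899, GRCm38 chr16:36750177-36784962, minus strand), had 5.33 CPM in the combination (2.98 to 8.79), 72.5 with aPDL1 (59.0 to 88.3), 49.2 with 2DG (35.9 to 65.8) and 187 in ctrl (150 to 230). Its log2 ratio was -1.92 for 2DG over ctrl (-2.48 to -1.40) and -3.73 for the combination over aPDL1 (-4.66 to -2.98). It was detected in 1.97% of B cells in the combination, 27.0% with aPDL1, 12.7% with 2DG and 57.1% in ctrl at their own depth. After thinning the B cell shares were 1.11% in the combination (0.361 to 2.57), 13.2% with aPDL1 (8.96 to 18.5), 6.56% with 2DG (2.87 to 12.5) and 41.0% in ctrl (28.6 to 54.3), against 0.985% of T cells in the combination, 6.45% with aPDL1, 2.79% with 2DG and 10.8% in ctrl. T cells again showed the same order, with 5.95 CPM in the combination, 32.7 with aPDL1, 15.2 with 2DG and 68.2 in ctrl, and without plasma-gene cells the B cell levels were 5.06 CPM in the combination, 80.2 with aPDL1, 52.6 with 2DG and 229 in ctrl.

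Tex14, known for its role in germ cell bridges, had 85.2 CPM in the combination, 196 with aPDL1, 137 with 2DG and 314 in ctrl. Creb3l2, a membrane-bound transcription factor of secretory cells, had 27.0 CPM in the combination, 60.8 with aPDL1, 43.7 with 2DG and 152 in ctrl. Without plasma-gene cells Tex14 had 51.1 CPM in the combination, 23.9 with aPDL1, 35.0 with 2DG and 25.8 in ctrl, so its direction turned. Creb3l2 had 12.9 CPM in the combination, 23.9 with aPDL1, 7.96 with 2DG and 22.6 in ctrl without them.

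In both pairs that differ by aPDL1, 3 of 3186 genes were 2-fold higher (0.0942%), 0 of them as abundant in B cells as in other cells, and 11 were 2-fold lower (0.345%). The lower genes at least as abundant in B cells were Hsph1, Fkbp11, Ly6c2, Jchain, Txndc5 and Dnajb1. Hsph1 and Dnajb1 are the heat shock genes above, and the other 4 were carried mostly by plasma-gene cells. Ly6c2, a surface protein of plasma cells and monocytes, had 90.2 CPM in the combination, 120 with aPDL1, 483 with 2DG and 360 in ctrl. Txndc5, a disulphide isomerase, had 94.8 CPM in the combination, 108 with aPDL1, 274 with 2DG and 260 in ctrl. Without plasma-gene cells Ly6c2 had 6.9 CPM in the combination, 29.6 with aPDL1, 30.3 with 2DG and 0 in ctrl, and Txndc5 had 40.9 CPM in the combination, 53.4 with aPDL1, 52.6 with 2DG and 41.9 in ctrl.

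Interferon gamma drives Irf1 and the antigen presentation machinery. Of 24 genes of this response, 7 had a mean of at least 50 CPM over the 4 libraries, a choice of genes that is the same in each pair and was added after values were seen. Their median was 0.87 for 2DG over ctrl, with 3 genes past 2-fold upwards against 1.85% of the 3182 genes chosen in the same way. It was 0.87 for aPDL1 over ctrl (3 genes past 2-fold, against 2.11%) and 0.74 for the combination over ctrl (2 genes, against 2.7%). The filter on the higher library let in 11 genes for 2DG over ctrl, 8 for aPDL1 over ctrl and 9 for the combination over ctrl, some at 0 in ctrl, and the medians of 1.31 for 2DG over ctrl, 0.83 for aPDL1 over ctrl and 0.83 for the combination over ctrl are in part fixed by that entry. In the pairs without ctrl the medians by that filter were 0.05 for the combination over aPDL1 and 0.08 for the combination over 2DG, and both changed sign under some alternatives. The second was -0.63 with CPM over totals without immunoglobulin genes and -0.93 without plasma-gene cells. Irf1 had 418 CPM in the combination (394 to 442), 302 with aPDL1 (273 to 333), 325 with 2DG (289 to 364) and 76.9 in ctrl (54.2 to 106). The ctrl library was alone at the low end, with log2 ratios over it of 2.42 in the combination (1.97 to 2.95), 1.96 with aPDL1 (1.49 to 2.5) and 2.06 with 2DG (1.58 to 2.61). T cells gave log2 ratios over ctrl of 0.58 in the combination, 0.86 with aPDL1 and 0.76 with 2DG. Myeloid cells gave 1.80 in the combination, 1.64 with aPDL1 and 1.53 with 2DG. Irf8, a factor of B cell and myeloid development, had 366 CPM in the combination, 399 with aPDL1, 319 with 2DG and 218 in ctrl.

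**Figure D5:**
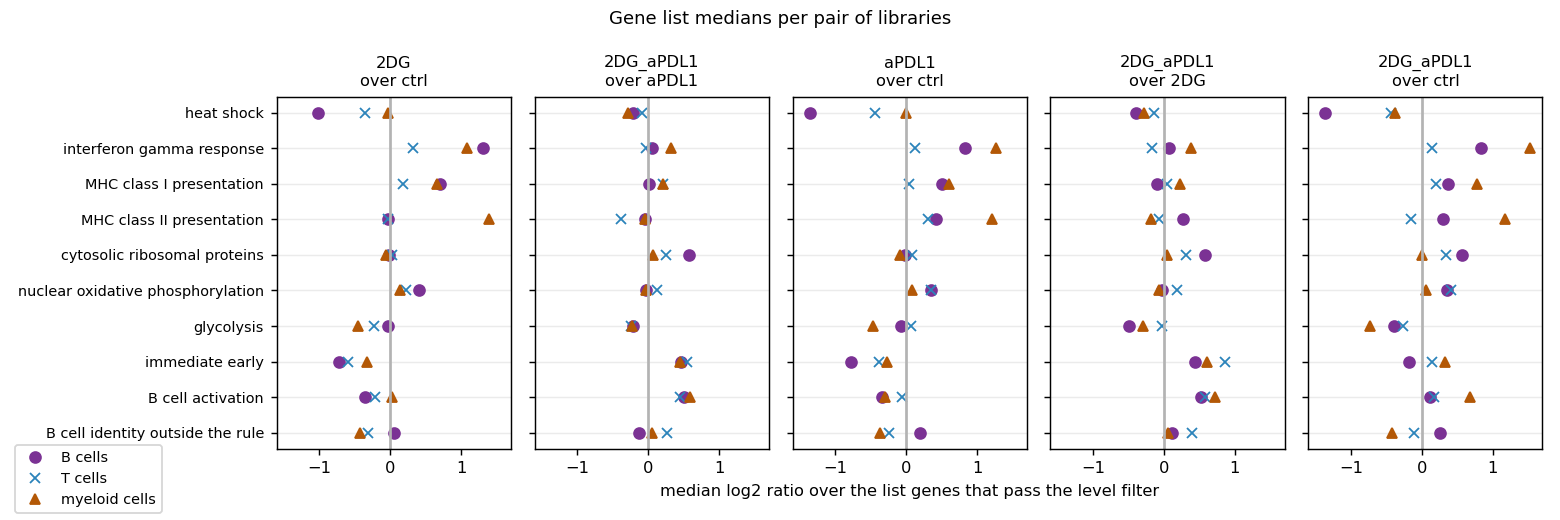
Median log2 ratio per gene list (rows) and pair of libraries (panels) in B cells (circles), T cells (crosses) and myeloid cells (triangles), over the list genes that pass the level filter. Heat shock lies at -1.01, -1.35 and -1.36 in B cells of the 3 pairs with ctrl, and ribosomal proteins at 0.56 to 0.58 in the 3 pairs with the combination on top.

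Type I interferon genes gave smaller values, with medians of 0.45 for 2DG over ctrl, 0.05 for the combination over aPDL1, -0.15 for aPDL1 over ctrl, -0.18 for the combination over 2DG and 0.06 for the combination over ctrl. Over the 11 genes with a mean of at least 50 CPM the value for 2DG over ctrl was 0.10 and that for the combination over ctrl -0.09. Ifi27l2a, an interferon-induced gene, had 327 CPM in the combination, 158 with aPDL1, 228 with 2DG and 93.5 in ctrl. Its log2 ratio was 1.27 for 2DG over ctrl (0.82 to 1.79) and 1.05 for the combination over aPDL1 (0.84 to 1.28), against -0.04 and 0.51 in T cells. The libraries with 2DG were thus above their partners without it for this gene in B cells. Ifi27l2a was among the 3 genes 2-fold higher in both pairs that differ by 2DG. Of these, 0 reached the level of the other kept cells in both pairs. The part of RNA from other cells in this difference was not tested.

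Of the MHC class I pathway, 14 genes passed in the pairs with ctrl, with medians of 0.71 for 2DG over ctrl, 0.51 for aPDL1 over ctrl and 0.37 for the combination over ctrl. The pairs without ctrl had medians of 0.01 for the combination over aPDL1 and -0.09 for the combination over 2DG, which change sign with totals without immunoglobulin genes and with each cell weighted equally. Psmb8, an immunoproteasome subunit, had 246 CPM in the combination, 221 with aPDL1, 234 with 2DG and 146 in ctrl. H2-K1, a classical heavy chain, was nearly level, with 856 CPM in the combination, 928 with aPDL1, 867 with 2DG and 829 in ctrl.

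MHC class II genes differed by less than 2-fold in B cells. The median of 11 genes was -0.03 for 2DG over ctrl and -0.04 for the combination over aPDL1, with signs that depended on the scaling. It was 0.43 for aPDL1 over ctrl (11 of 11 above 0, against 55.5% of all genes). For the combination it was 0.27 over 2DG (9 of 11, against 56.6%) and 0.30 over ctrl (10 of 11, against 51.7%). None of the 11 was past 2-fold in any of these pairs. Cd74, the invariant chain, had 5770 CPM in the combination, 5520 with aPDL1, 4770 with 2DG and 4870 in ctrl. H2-Aa, an alpha chain of class II, had 1860 CPM in the combination, 1810 with aPDL1, 1320 with 2DG and 1490 in ctrl. Both libraries with aPDL1 were above both without it for these genes and for H2-Ab1, with 1450 CPM in the combination, 1500 with aPDL1, 1090 with 2DG and 1130 in ctrl. Myeloid cells had list medians of 1.40 for 2DG over ctrl, 1.22 for aPDL1 over ctrl and 1.17 for the combination over ctrl. Ciita, the master regulator of class II genes, had 150 CPM in the combination, 245 with aPDL1, 127 with 2DG and 160 in ctrl.

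Activation genes had opposite directions in the 2 pairs that differ by 2DG. The list median was -0.35 for 2DG over ctrl (15 genes, 12 below 0) and 0.51 for the combination over aPDL1 (17 genes, 13 above 0). For the aPDL1 pairs it was -0.34 for aPDL1 over ctrl and 0.52 for the combination over 2DG. The combination over ctrl had 0.12, which was -0.10 with each cell weighted equally. Of all genes, 45.9% were above 0 for 2DG over ctrl and 43.5% for the combination over aPDL1. Cd86, a costimulatory ligand for T cells, had 986 CPM in the combination, 659 with aPDL1, 560 with 2DG and 447 in ctrl. Cd69, an early marker that holds lymphocytes in the node, had 598 CPM in the combination, 361 with aPDL1, 330 with 2DG and 387 in ctrl. Cd83, which stabilises surface class II, had 881 CPM in the combination, 618 with aPDL1, 492 with 2DG and 1160 in ctrl. Combination cells thus had the highest Cd86 and Cd69, and ctrl cells the highest Cd83. T cells had activation medians of -0.21 for 2DG over ctrl and 0.45 for the combination over aPDL1.

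Immediate early genes, transcribed within minutes of a signal at the cell surface, had the same pattern. Of 17 genes, 16 were below 0 for 2DG over ctrl (median -0.72) and 17 for aPDL1 over ctrl (median -0.78), while 13 of 16 were above 0 for the combination over aPDL1 (median 0.46) and 12 of 16 for the combination over 2DG (median 0.44). The combination over ctrl had a median of -0.18. Of all genes, 45.9% were above 0 for 2DG over ctrl and 55.5% for aPDL1 over ctrl. For the combination 43.5% of all genes were above 0 over aPDL1 and 56.6% over 2DG. T cells had medians of -0.59 for 2DG over ctrl, -0.38 for aPDL1 over ctrl and 0.55 for the combination over aPDL1. Myeloid cells had -0.33, -0.27 and 0.45 in the same pairs, so these directions were not particular to B cells. Jun had 723 CPM in the combination, 827 with aPDL1, 743 with 2DG and 2100 in ctrl. Junb had 1280 CPM in the combination, 732 with aPDL1, 644 with 2DG and 883 in ctrl. Jund had 1440 CPM in the combination, 1170 with aPDL1, 958 with 2DG and 1630 in ctrl, and Fosb had 773 CPM in the combination, 799 with aPDL1, 534 with 2DG and 869 in ctrl. These AP-1 subunits did not share 1 order of libraries, since Junb was highest in the combination and the other 3 in ctrl.

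2DG acts on glucose use, and glycolysis genes in B cells had a median of -0.03 for 2DG over ctrl (12 genes), 0.01 with totals without immunoglobulin genes. The median was -0.22 for the combination over aPDL1, with 11 of 11 genes below 0, where 43.5% of all genes were above 0. The glycolysis median was -0.07 for aPDL1 over ctrl, -0.49 for the combination over 2DG and -0.39 for the combination over ctrl. Without plasma-gene cells the value for the combination over ctrl was 0.01 and that for 2DG over ctrl 0.39, while those for the combination over aPDL1 and over 2DG stayed below 0. Pfkp, a phosphofructokinase, had 76.3 CPM in the combination, 165 with aPDL1, 155 with 2DG and 95.6 in ctrl, and was the one glycolysis gene past 2-fold for the combination over aPDL1. Gapdh had 247 CPM in the combination, 287 with aPDL1, 319 with 2DG and 270 in ctrl. Pkm, pyruvate kinase, had 124 CPM in the combination, 149 with aPDL1, 183 with 2DG and 183 in ctrl. The combination was lowest of the 4 in each of these 3 genes. T cells had glycolysis medians of -0.25 and myeloid cells of -0.23 for the combination over aPDL1.

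Nuclear genes of oxidative phosphorylation were higher in the treated libraries than in ctrl. Their median was 0.41 for 2DG over ctrl (28 of 33 above 0), 0.36 for aPDL1 over ctrl (28 of 33) and 0.35 for the combination over ctrl (30 of 34). None passed 2-fold. Cox4i1, a subunit of cytochrome oxidase, had 363 CPM in the combination, 361 with aPDL1, 361 with 2DG and 256 in ctrl, so the 3 treated libraries were level. The medians for the combination over aPDL1 and over 2DG were -0.02 each, and their sign depended on the scaling. T cells had medians of 0.22 for 2DG over ctrl, 0.35 for aPDL1 over ctrl and 0.41 for the combination over ctrl. Myeloid cells had 0.13, 0.08 and 0.05 in the same pairs.

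2DG can also stand in for mannose in N-glycan precursors, so glycan genes were looked at. Genes of N-glycan synthesis and transfer had medians of -0.34 for 2DG over ctrl, -0.11 for the combination over aPDL1, -0.32 for aPDL1 over ctrl, -0.27 for the combination over 2DG and -0.59 for the combination over ctrl. With each cell weighted equally the value for the combination over 2DG was 0.17. Without plasma-gene cells all 5 medians were positive, for instance 0.41 for the combination over ctrl and 0.23 for 2DG over ctrl, so the direction rested on those cells. Stt3b, a catalytic subunit of oligosaccharyltransferase, had 745 CPM in the combination, 653 with aPDL1, 519 with 2DG and 412 in ctrl. Rpn2, another subunit of that enzyme, had 57.5 CPM in the combination, 81.3 with aPDL1, 80.9 with 2DG and 118 in ctrl. These subunits ran in opposite directions.

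Golgi genes of glycan branching, sialic acid and galectins had medians of 0.20 for 2DG over ctrl, -0.17 for the combination over aPDL1, 0.36 for aPDL1 over ctrl, 0.12 for the combination over 2DG and 0.14 for the combination over ctrl. St6gal1, which adds the sialic acid that the B cell lectin Cd22 binds, had 392 CPM in the combination, 441 with aPDL1, 292 with 2DG and 418 in ctrl. Cd22 itself had 216 CPM in the combination, 275 with aPDL1, 162 with 2DG and 156 in ctrl. For both genes the combination was below aPDL1, and aPDL1 was the highest of the 4. Man1a, a mannosidase of glycan trimming, had 2130 CPM in the combination, 2000 with aPDL1, 1710 with 2DG and 2100 in ctrl.

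Cd274, the gene of the aPDL1 target, had 451 CPM in the combination, 423 with aPDL1, 511 with 2DG and 339 in ctrl. The log2 ratio was 0.59 for 2DG over ctrl (0.33 to 0.86) and 0.09 for the combination over aPDL1 (-0.05 to 0.24). In T cells the ratio for 2DG over ctrl was -0.59 and in myeloid cells 0.04. The 4 genes that passed of the regulatory and inhibitory ligand list had medians of 0.39 for 2DG over ctrl, 0.07 for the combination over aPDL1, 0.22 for aPDL1 over ctrl, 0.18 for the combination over 2DG and 0.29 for the combination over ctrl.

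Genes of the resting follicular cell and its homing were present in all libraries. Foxp1, a transcription factor of resting B cells, had 3370 CPM in the combination, 3170 with aPDL1, 2790 with 2DG and 3260 in ctrl. Bach2, which holds B cells back from becoming plasma cells, had 1840 CPM in the combination, 2280 with aPDL1, 2330 with 2DG and 2250 in ctrl, lowest in the combination. Cxcr5 had 298 CPM in the combination, 200 with aPDL1, 191 with 2DG and 316 in ctrl, so both single agents were lower. Ccr7, the receptor for entry into lymph nodes, had 222 CPM in the combination, 167 with aPDL1, 192 with 2DG and 185 in ctrl. Homing and egress genes had medians of 0.01 for 2DG over ctrl, 0.25 for the combination over aPDL1, 0.24 for aPDL1 over ctrl, 0.48 for the combination over 2DG and 0.23 for the combination over ctrl. The first of these was -0.13 with each cell weighted equally. Cr2, the complement receptor CD21, had 82.7 CPM in the combination, 116 with aPDL1, 97.3 with 2DG and 93.5 in ctrl, and Fcer2a had 104 CPM in the combination, 85.7 with aPDL1, 101 with 2DG and 81.1 in ctrl. No follicular or naive list gene was past 2-fold in any pair, and the medians of its 13 genes lay between -0.04 and 0.21.

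Antigen receptor signalling genes had medians of 0.06 for 2DG over ctrl, -0.11 for the combination over aPDL1, 0.35 for aPDL1 over ctrl, 0.10 for the combination over 2DG and 0.14 for the combination over ctrl, with -0.06 for the combination over 2DG when each cell was weighted equally. Lyn, the kinase that starts this signal, had 1720 CPM in the combination, 1450 with aPDL1, 1260 with 2DG and 1110 in ctrl. Syk, which carries it on, had 1460 CPM in the combination, 1610 with aPDL1, 1590 with 2DG and 1200 in ctrl. Both kinases were lowest in ctrl. Survival genes and cytokine receptors had medians of 0.23 for 2DG over ctrl, 0.05 for the combination over aPDL1, 0.41 for aPDL1 over ctrl, 0.22 for the combination over 2DG and 0.25 for the combination over ctrl. Tnfrsf13c, the receptor for the survival cytokine BAFF, had 76.0 CPM in the combination, 113 with aPDL1, 116 with 2DG and 64.4 in ctrl. Germinal centre genes were mostly under the filter, and 2 of 12 passed, with medians of -0.45 for 2DG over ctrl, -0.33 for the combination over aPDL1, -0.95 for aPDL1 over ctrl, -0.83 for the combination over 2DG and -1.28 for the combination over ctrl. Bcl6, which directs germinal centre B cells, had 105 CPM in the combination, 121 with aPDL1, 120 with 2DG and 187 in ctrl.

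Shares of B cells by state were taken after thinning each cell to 2000 UMIs, which left out 7 shallower B cells of the combination, 10 with aPDL1, 4 with 2DG and 2 in ctrl. Ighd was detected in 43.0% of thinned B cells of the combination (38.4 to 47.7), 44.3% with aPDL1 (37.5 to 51.3), 41.0% with 2DG (32.2 to 50.3) and 49.2% in ctrl (36.1 to 62.3), and in at most 0.251% of T cells. At own depth these shares were 62.4% in the combination, 59.9% with aPDL1, 59.5% with 2DG and 66.7% in ctrl. The 4 intervals overlap, so no difference in IgD detection was seen at this depth.

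Cells with at least 2 UMIs of switched heavy chains (IgG or IgA), more than of Ighm and Ighd, were 4.66% in the combination (2.91 to 7.03), 13.7% with aPDL1 (9.36 to 19.1), 13.9% with 2DG (8.33 to 21.4) and 6.56% in ctrl (1.82 to 15.9). The combination was below both single agents by intervals that do not overlap, while ctrl overlapped all 3. T cells gave at most 0.435%. At own depth the shares were 6.33% in the combination, 14.9% with aPDL1, 15.9% with 2DG and 6.35% in ctrl. Cells with plasma cell genes were 2.66% of thinned B cells in the combination (1.38 to 4.6), 6.6% with aPDL1 (3.66 to 10.8), 8.2% with 2DG (4.0 to 14.6) and 8.2% in ctrl (2.72 to 18.1), against at most 0.0758% of thinned T cells. At own depth 2.17% of T cells in the combination to 6.15% in ctrl had them. Among B cells outside the highest doublet scores the switched shares were 1.89% in the combination (0.82 to 3.69), 7.77% with aPDL1 (4.42 to 12.5), 5.66% with 2DG (2.11 to 11.9) and 6.9% in ctrl (1.91 to 16.7). The combination interval then overlapped that of 2DG and lay below that of aPDL1. Without cells that carried Lyz2, C1q or Tyrobp UMIs the shares were 4.59% in the combination (2.47 to 7.73) and 12.5% with aPDL1 (7.7 to 18.8). With 2DG the share was 13.3% (7.08 to 22.1), so the combination interval overlapped both. Under the other marker sums and the stricter gene and mitochondrial limits it stayed below both.

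Lambda light chain above kappa was found in 14.6% of thinned B cells of the combination (11.5 to 18.2), 11.3% with aPDL1 (7.39 to 16.4), 20.5% with 2DG (13.7 to 28.7) and 23% in ctrl (13.2 to 35.5). These intervals overlap, and at own depth the shares were 11.4% in the combination, 9.01% with aPDL1, 18.3% with 2DG and 14.3% in ctrl. T cells gave 0.0379% in the combination, 0.0396% with aPDL1, 1.97% with 2DG and 0% in ctrl, where 0 of 399 cells allows up to 0.752%. At least 2 UMIs of Cd69, Cd83, Cd86, Nr4a1 and Egr1 were found in 92.2% of thinned B cells of the combination (89.4 to 94.5), 76.4% with aPDL1 (70.1 to 82.0), 73.8% with 2DG (65.0 to 81.3) and 88.5% in ctrl (77.8 to 95.3). The combination exceeded both single agents by intervals that do not overlap. At own depth the shares were 97.4% in the combination, 90.5% with aPDL1, 92.1% with 2DG and 98.4% in ctrl. Thinned T cells had 32.4% in the combination, 29.6% with aPDL1, 23.2% with 2DG and 33.8% in ctrl.

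Cycling cells, with at least 2 UMIs of Mki67, Top2a, Stmn1 and Birc5, were rare among B cells. They were 2.88% in the combination (1.54 to 4.88), 2.83% with aPDL1 (1.05 to 6.06), 2.46% with 2DG (0.51 to 7.02) and 0% in ctrl (0 to 5.87). At own depth the shares were 7.64% in the combination, 6.31% with aPDL1, 3.97% with 2DG and 1.59% in ctrl. T cells had 8.18% in the combination, 9.97% with aPDL1, 11.3% with 2DG and 9.27% in ctrl after thinning, so T cells were above B cells in each library.

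Markers of other cell types were low in B cells but not even across libraries. The 6 neutrophil markers summed to 36.6 CPM in the combination, 14.7 with aPDL1, 25.1 with 2DG and 1520 in ctrl, while in the other kept cells they summed to 938 CPM in the combination, 1630 with aPDL1, 2290 with 2DG and 13300 in ctrl. S100a8 was found in 27.0% of ctrl B cells, with 90.4% of its ctrl UMIs in 1 cell. Red cell markers summed to 880 CPM in the combination, 570 with aPDL1, 1.09 with 2DG and 3720 in ctrl, and Hba-a1, Hba-a2 and Hbb-bs were at 0 with 2DG. The 8 monocyte or macrophage markers outside Lyz2 summed to 165 CPM in the combination, 346 with aPDL1, 244 with 2DG and 451 in ctrl, against 6030 to 7050 CPM in myeloid cells, with Adgre1 at 0 in ctrl. The ctrl B cells thus carried the most RNA of these 3 kinds. The part of these transcripts in the differences between ctrl and the other libraries was not tested.

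T cell markers outside the Cd3 genes summed to 44.7 CPM in the combination, 54.2 with aPDL1, 44.8 with 2DG and 29.1 in ctrl, where Trbc1, Trbc2, Cd4, Cd8a and Cd8b1 were at 0. NK cell markers summed to 40.5 CPM in the combination, 82.8 with aPDL1, 24.0 with 2DG and 0 in ctrl. Conventional dendritic cell markers summed to 20.2 CPM in the combination, 40.3 with aPDL1, 9.84 with 2DG and 6.24 in ctrl, and plasmacytoid ones to 22.4 CPM in the combination, 3.66 with aPDL1, 0 with 2DG and 4.16 in ctrl. Epithelial or tumour markers summed to 19.9 CPM in the combination, 27.1 with aPDL1, 21.9 with 2DG and 0 in ctrl, and Msln and Krt19 were at 0 in all 4. Stromal markers summed to 354 CPM in the combination, 403 with aPDL1, 310 with 2DG and 260 in ctrl, of which Pecam1, which B cells may express too, held 352 CPM in the combination, 402 with aPDL1, 310 with 2DG and 252 in ctrl. Apart from Pecam1, each of these sums was at most 82.8 CPM in B cells of any library.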

How the data were processed

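Single-cell RNA was captured with a droplet 3′ kit from 4 samples, 1 library per group. Per the submitters' processing notes the authors used Cell Ranger 3.1.0 and mm10, whereas the file headers name Cell Ranger 7.0.0, and the sources used here do not say if reads from introns entered the counts. The deposited matrices hold raw UMI counts of 32285 genes per barcode. The members and gene lists were chosen with earlier results of these data known.

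Kept cells and B, T and myeloid cells were taken by the thresholds in the text, and UMIs were summed per library and cell kind (Python 3.11.15, numpy 2.4.6, scipy 1.17.1, pandas 2.3.3). Pairs were compared as log2 ratios of CPM with 0.5 added to each count, among genes with at least 50 CPM and 20 UMIs in the higher library, leaving out 674 immunoglobulin, T cell receptor, mitochondrial and haemoglobin features. Gene list medians use the genes that pass. Of 36 lists, 9 hold markers of other cells, and 1 listed symbol is not in the files. The step was tested on simulated Poisson counts. These hold no gene carried mostly by a single cell, so the simulation does not cover such genes. No significance test was used. Doublet scores were computed with Scrublet in scanpy 1.11.5 at 0.8% per 1000 barcodes, and TMM factors with edgeR 4.0.16 in R 4.3.3.

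Named genes are the 4 most abundant of a list or fewer, genes past 2-fold in both pairs of a treatment, and up to 8 per direction outside the other 3 libraries, the last 2 kinds only where B cells had at least the level of other cells. Genes that define B cells, the surface genes Cd22, Ccr7, Fcer2a, Tnfrsf13c and Cd5, and Bhlhe41, Zbtb32 and Ighd, which lie outside that rule, were chosen after their values were seen. Some genes that the rule names are not reported here. Positions come from GENCODE M21, matched for 574 of 574 genes, and promoter letters from RefSeq. The alternatives were other marker sums, stricter exclusion of myeloid RNA, doublet scores, other cell filters, scalings, count filters (one by the mean over the 4 libraries, added after values were seen), folds and thinning depths.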

Additional observations from a re-analysis of the deposited data

Results flagged for a closer look

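The ratio for 2DG had opposite signs without and with aPDL1 in 11 gene lists and 30 named genes. The 2 lists and 12 genes given here are those for which both 95% intervals left out 0, the counting interval for a gene and, for a list of at least 5 passing genes, the interval of the median over its genes, which are not independent. With 1 library per group these differences were not tested. Each difference below is the log2 ratio of the combination over aPDL1 minus that of 2DG over ctrl, and all 4 libraries enter it.

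The activation list had a median of 0.51 for the combination over aPDL1 and -0.35 for 2DG over ctrl, a difference of 0.86, and the immediate early list 0.46 and -0.716, a difference of 1.176. Cd83, a surface protein that holds class II in place, had 0.51 for the combination over aPDL1 and -1.243 for 2DG over ctrl, a difference of 1.753. Junb had a difference of 1.263 and Jund one of 1.074. T cells of the same libraries had activation medians of 0.45 for the combination over aPDL1 and -0.21 for 2DG over ctrl, so opposite signs were not found in B cells alone.

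Cxcr5, the follicle homing receptor, had 0.575 for the combination over aPDL1 and -0.725 for 2DG over ctrl, a difference of 1.299. Blk, the Src-family kinase, had 0.515 for the combination over aPDL1 and -0.875 for 2DG over ctrl, a difference of 1.39. For Rps24 the difference was 1.397, for Rpl13 0.968, for Man1a 0.392 and for H2-Eb1 0.375. All of these were higher in the combination than with aPDL1 and lower with 2DG than in ctrl.

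The other direction was found for Pfkp, the phosphofructokinase, with -1.111 for the combination over aPDL1 and 0.688 for 2DG over ctrl, a difference of -1.799. For Tnfrsf13c, the BAFF receptor, the difference was -1.402, and for Ly6c2, carried mostly by plasma-gene cells, -0.839.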

How the results depend on the processing

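No paired analysis was possible because each group is 1 library, and no replicate could be left out. Values for shares, counts and chosen gene lists were compared under the alternatives. Of these, 768 moved by less than their counting interval or the 1.5-fold margin, 103 moved further and 7 were counted as reversed. For the remaining values, among them other lists and single genes, these numbers were 4946, 767 and 34. Values not counted as reversed could also cross 0. The unfolded protein median for the combination over 2DG, for instance, was -0.23, and 0.072 without plasma-gene cells. The order of the B cell shares of kept cells was the same under each alternative, and so were the directions of Il5ra and Ccr6 in the pairs with the combination and of Hspa1b and Irf1 in the pairs with ctrl. Values below are log2 ratios or medians unless they are counts or percents. The cause of a move was not tested beyond what each alternative leaves out. Depth limits the ctrl library most, with 63 B cells and 481068 UMIs. The split of calls, the plasma cell and stress lists and the isotypes rest on few cells, and with 1 library per group none of the values separates treatment from library.

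With a 1.5-fold limit, the counts of higher and lower genes were 364 and 425 for 2DG over ctrl, 210 and 223 for the combination over aPDL1, 474 and 346 for aPDL1 over ctrl, 275 and 194 for the combination over 2DG, and 461 and 427 for the combination over ctrl. Without a filter on low counts they were 2018 and 1790, 1632 and 2557, 1782 and 1945, 1376 and 2361, and 1548 and 2109 for the same pairs. With at least 100 CPM and 50 UMIs they were 33 and 73 for 2DG over ctrl, 31 and 68 for aPDL1 over ctrl, 28 and 36 for the combination over 2DG and 53 and 81 for the combination over ctrl, and 8 were lower for the combination over aPDL1.

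With cells carrying any Lyz2, C1q or Tyrobp UMI left out, B cells were 3.1% of kept cells in the combination, 1.79% with aPDL1, 1.17% with 2DG and 0.429% in ctrl. Of B plus T cells they were 9.71% in the combination, 5.87% with aPDL1, 3.29% with 2DG and 8.16% in ctrl. There, 170 genes were higher for aPDL1 over ctrl and 104 lower for the combination over ctrl. The MHC class II median was 0.164 for the combination over aPDL1 and 0.144 for aPDL1 over ctrl, the glycolysis median 0.288 for the combination over ctrl, and that of the unfolded protein list -0.024 for the combination over 2DG.

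Leaving out the plasma-gene cells was chosen after seeing the data. It also takes out deeper cells, since the cutoff was applied at own depth. B cells of the combination were then 4.37% of kept cells and 13.2% of B plus T cells. Counts were 170 higher and 81 lower for 2DG over ctrl, 60 lower for the combination over aPDL1, 68 lower for aPDL1 over ctrl and 30 higher for the combination over 2DG. The B-1 median was 0.282 for 2DG over ctrl and -0.101 for the combination over 2DG. The plasma cell median was -0.003 for the combination over aPDL1, 0.187 for aPDL1 over ctrl, 0.063 for the combination over 2DG and 0.06 for the combination over ctrl. For the combination over ctrl the glycolysis median was 0.01 and the N-glycan median 0.411. The unfolded protein median was 0.263 for 2DG over ctrl, 0.403 for aPDL1 over ctrl, 0.072 for the combination over 2DG and 0.179 for the combination over ctrl, and the ribosomal median was -0.233, -0.141, 0.667 and 0.406 for those 4 pairs.

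Single genes that changed sign without plasma-gene cells were genes of secretion and a few others. For 2DG over ctrl Hspa5 was 0.263, Hsp90b1 0.354, Tex14 0.386 and Fkbp11 0.081. For aPDL1 over ctrl Hspa5 was 0.403, Creb3l2 0.008, Txndc5 0.308, Ly6c2 4.22 and Creld2 0.444. For the combination over ctrl Hspa5 was 0.164, Hsp90b1 0.304, Xbp1 0.462, Tex14 0.903, Ly6c2 2.144, Mzb1 0.595 and Cpeb3 0.128. For the combination over aPDL1 Tex14 was 1.075 and Cpeb3 0.011, and for the combination over 2DG Xbp1 was 0.007.

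With the highest Scrublet scores left out, 167 genes were higher for 2DG over ctrl and 185 for aPDL1 over ctrl. The plasma cell median was -3.079 for 2DG over ctrl, -0.02 for the combination over aPDL1, -2.403 for aPDL1 over ctrl, 0.16 for the combination over 2DG and -2.817 for the combination over ctrl. The unfolded protein median was -1.6 for 2DG over ctrl, -0.003 for the combination over aPDL1 and -0.047 for the combination over 2DG. The ribosomal median was 0.636 for the combination over 2DG and 0.615 for the combination over ctrl. Switched cells were 1.89% in the combination, 7.77% with aPDL1 and 5.66% with 2DG, and cells with plasma cell genes 0.473% in the combination, 0.518% with aPDL1 and 0.0% with 2DG. In ctrl the scores marked 3 B cells, so plasma-gene cells were left out unevenly over libraries. Xbp1 was 0.108 for the combination over 2DG, and Fkbp11 0.154 for the combination over aPDL1.

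With a marker sum of at least 5, the cell cycle median was -0.336 for 2DG over ctrl, and the ribosomal median -0.147 for 2DG over ctrl and 0.658 for the combination over 2DG. For aPDL1 over ctrl Jchain was then 0.09, Txndc5 0.548 and Ly6c2 0.388, and for the combination over ctrl Jchain was 0.073 and Txndc5 0.244. With each cell weighted equally the ribosomal median was -0.153 for 2DG over ctrl, -0.101 for aPDL1 over ctrl, 0.647 for the combination over 2DG and 0.455 for the combination over ctrl. With totals without immunoglobulin, mitochondrial and haemoglobin genes it was 0.494 for the combination over 2DG and 0.498 for the combination over ctrl, and the B-1 median for the combination over 2DG was -0.007. That B-1 median was -0.237 with a filter of 20 CPM and 10 UMIs. With a marker sum of at least 2, lambda cells were 12.5% in ctrl.

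Without thinning, Ighd was detected in 62.4% of B cells of the combination, 59.9% with aPDL1, 59.5% with 2DG and 66.7% in ctrl, and activated cells were 97.4% in the combination, 90.5% with aPDL1, 92.1% with 2DG and 98.4% in ctrl. Cycling cells were 7.64% in the combination and 6.31% with aPDL1, and in the combination lambda cells were 11.4% and cells with plasma cell genes 11.4%. Thinned to 1000 UMIs, Ighd was detected in 26.7% in the combination, 27.0% with aPDL1, 28.6% with 2DG and 29.0% in ctrl, and activated cells were 70.7% in the combination, 55.0% with aPDL1, 53.2% with 2DG and 67.7% in ctrl. Cycling cells were then 0.901% with aPDL1 and lambda cells 11.3% in ctrl.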

Other observations

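Several subsets of B cells were measured by short lists of which few genes had enough counts, and their values belong to no comparison above. Marginal zone genes had medians of -0.27 for 2DG over ctrl, -0.13 for the combination over aPDL1, -0.07 for aPDL1 over ctrl, 0.02 for the combination over 2DG and -0.19 for the combination over ctrl. Over the 6 genes with a mean of at least 50 CPM the value was 0.06 for aPDL1 over ctrl and 0.03 for the combination over ctrl. Plac8, the most abundant of them, had 871 CPM in the combination, 412 with aPDL1, 623 with 2DG and 432 in ctrl. B-1 and innate-like genes had medians of -0.61 for 2DG over ctrl, 0.06 for the combination over aPDL1, -0.43 for aPDL1 over ctrl, 0.87 for the combination over 2DG (3 genes) and -0.52 for the combination over ctrl. The -0.61 was 0.28 without plasma-gene cells, the 0.87 was -0.007 with totals without immunoglobulin genes, and the -0.52 was 0.14 over the 3 genes with a mean of at least 50 CPM over the 4 libraries. Ahnak, a large scaffold protein, had 424 CPM in the combination, 334 with aPDL1, 228 with 2DG and 202 in ctrl. Both Plac8 and Ahnak were thus highest in the combination.

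Memory and age-associated genes had medians of -0.28 for 2DG over ctrl, 0.11 for the combination over aPDL1, -0.16 for aPDL1 over ctrl, 0.38 for the combination over 2DG and 0.18 for the combination over ctrl, the last of which was -0.02 with each cell weighted equally. Toll-like receptor genes had medians of -0.10 for 2DG over ctrl, -0.19 for the combination over aPDL1, 0.19 for aPDL1 over ctrl, 0.20 for the combination over 2DG and 0.19 for the combination over ctrl, over 3 or 4 genes, and the first was 0.03 with each cell weighted equally. Cell cycle genes had medians of 0.70 for 2DG over ctrl (9 genes), 0.27 for the combination over aPDL1, 0.13 for aPDL1 over ctrl, -0.26 for the combination over 2DG and 0.54 for the combination over ctrl. The 0.70 was -0.34 with a marker sum of at least 5, and the 0.13 was -0.34 with median-of-ratios scaling and -0.55 with each cell weighted equally. Of the memory genes Cd38, an ectoenzyme, had 369 CPM in the combination, 230 with aPDL1, 231 with 2DG and 289 in ctrl. Constant genes of immunoglobulins summed to 39500 CPM in the combination, 72900 with aPDL1, 97400 with 2DG and 85500 in ctrl, and in T cells to 66.7 CPM in the combination, 95.3 with aPDL1, 86.0 with 2DG and 65.7 in ctrl.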
